A study of Mus musculus with 6 samples.

Results

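Among the 6 MNase-seq libraries of the series, the 4 wild-type libraries were compared here as 2 sets of 2. WT 2 and WT 3, whose region lists are named MnaseB and MnaseC in the deposit, formed one set, and WT 1 and WT 4, the other wild-type libraries, formed the other. The 2 libraries of the K49A mutant of protamine 1 were not used. The sets were taken from the names of the lists at a time when the contents of the lists were already known. Every value below is therefore a description of these 4 libraries, without a test of the difference between sets. With 2 libraries against 2, an exact permutation test (two-sided) could not give a p below 0.333. Nothing in the labels says that the list names mark a preparation, a sequencing batch or a group of animals.

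All 4 libraries came from wild-type C57BL6 mice, from sperm collected from the epididymis and vas deferens, and the series calls them biological replicates. How many animals each library stands for, and their ages, are not stated in the labels. According to the labels, all 4 shared the same steps: DNase I before lysis, permeabilisation, decondensation with DTT, and 2 rounds of micrococcal nuclease (MNase) with 5 and 15 units. Mononucleosome-sized DNA was then cut from an agarose gel and sequenced with unique molecular identifiers. The deposited data were 1 list of enriched regions per library.

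MNase cuts DNA that is not protected by bound protein, and mononucleosome-sized fragments that remain are read as DNA wrapped around histones. In sperm, protamines replace most histones as the nucleus is packed. The histones that stay in mouse sperm are known to lie largely at gene starts rich in CpG, the CG dinucleotide that is the target of DNA methylation in mammals.

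Promoter sequences of 6 genes are given as examples of places where the sets differed. Most such places lay elsewhere. Of the regions called in WT 2 and WT 3 only, 20.9% lay within 1 kb of a gene start. Of those called in WT 1 and WT 4 only, 41.9% did. Each promoter below is 300 bases long, from the RefSeq promoter table of assembly GRCm38.p6 (the mm10 build), and runs from 250 bases before to 50 bases after the start of the gene. It is written 5′ to 3′ on the strand of the gene. Every CG is in capitals, and 94.8% of the 17491 promoters of that length held at least 1 CG, a motif that reads the same on both strands. The first 3 belong to genes with a region in WT 2 and WT 3 and in neither other library, and in both libraries the region covered the whole window. Gata2, a zinc finger transcription factor of blood progenitors, had its window at chr6:88193641-88193940 on the plus strand with 32 CG. Zpbp2, which encodes an acrosomal protein that binds the zona pellucida, had its window at chr11:98550847-98551146 on the plus strand with 26 CG. Tekt1, a microtubule protein of the sperm flagellum, had its window at chr11:72361833-72362132 on the minus strand with 20 CG.
Gata2: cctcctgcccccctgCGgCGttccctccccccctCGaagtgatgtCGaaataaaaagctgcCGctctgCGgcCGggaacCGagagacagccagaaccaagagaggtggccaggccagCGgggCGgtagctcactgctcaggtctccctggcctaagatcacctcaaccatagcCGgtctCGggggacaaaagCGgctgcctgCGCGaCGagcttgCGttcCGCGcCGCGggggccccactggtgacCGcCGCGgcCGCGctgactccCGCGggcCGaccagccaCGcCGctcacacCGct
Zpbp2: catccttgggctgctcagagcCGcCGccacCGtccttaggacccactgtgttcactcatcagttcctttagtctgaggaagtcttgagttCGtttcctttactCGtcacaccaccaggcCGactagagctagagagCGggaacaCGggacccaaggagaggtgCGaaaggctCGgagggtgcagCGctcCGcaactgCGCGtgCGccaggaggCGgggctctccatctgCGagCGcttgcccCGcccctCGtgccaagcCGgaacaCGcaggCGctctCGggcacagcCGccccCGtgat
Tekt1: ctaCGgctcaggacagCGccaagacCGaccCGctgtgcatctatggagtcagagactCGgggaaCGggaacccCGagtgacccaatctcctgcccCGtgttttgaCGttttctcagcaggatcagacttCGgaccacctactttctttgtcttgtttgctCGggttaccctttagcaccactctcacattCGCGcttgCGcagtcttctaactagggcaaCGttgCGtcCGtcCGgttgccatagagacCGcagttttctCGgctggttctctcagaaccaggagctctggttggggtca
The other 3 belong to genes with a region in WT 1 and WT 4 and in neither WT 2 nor WT 3. No named gene of that class had its whole window covered, so 3 whose start base was covered in both libraries were taken, after their values had been seen. Dip2a had its window at chr10:76345242-76345541 on the minus strand with 47 CG. Gtdc1, which encodes a glycosyltransferase-like protein, had its window at chr2:44927187-44927486 on the minus strand with 41 CG. Clock, a transcription factor of the circadian clock, had its window at chr5:76304743-76305042 on the minus strand with 42 CG.
Dip2a: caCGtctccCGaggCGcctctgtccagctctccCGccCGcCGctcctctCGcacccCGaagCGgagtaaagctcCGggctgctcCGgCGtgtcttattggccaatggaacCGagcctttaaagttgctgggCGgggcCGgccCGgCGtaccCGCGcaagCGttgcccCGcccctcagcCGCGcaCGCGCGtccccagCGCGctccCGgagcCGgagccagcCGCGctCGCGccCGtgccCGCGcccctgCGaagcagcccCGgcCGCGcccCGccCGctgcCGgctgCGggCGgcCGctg
Gtdc1: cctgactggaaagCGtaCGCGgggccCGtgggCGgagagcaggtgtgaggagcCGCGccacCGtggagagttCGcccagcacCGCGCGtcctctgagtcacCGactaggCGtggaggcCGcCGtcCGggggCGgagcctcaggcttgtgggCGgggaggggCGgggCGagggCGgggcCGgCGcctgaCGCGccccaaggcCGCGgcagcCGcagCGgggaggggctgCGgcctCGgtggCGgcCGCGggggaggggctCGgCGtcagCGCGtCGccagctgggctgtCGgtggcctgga
Clock: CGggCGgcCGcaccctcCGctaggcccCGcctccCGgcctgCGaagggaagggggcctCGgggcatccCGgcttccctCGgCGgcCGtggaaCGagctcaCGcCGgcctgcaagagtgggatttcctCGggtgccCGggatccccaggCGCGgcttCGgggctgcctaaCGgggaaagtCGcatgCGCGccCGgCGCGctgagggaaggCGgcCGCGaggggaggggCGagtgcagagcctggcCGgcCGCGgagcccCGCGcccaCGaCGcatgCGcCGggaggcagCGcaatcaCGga
The CG counts of these 6 promoters lay above the medians of their classes, which are given further on (19 and 32).

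The first comparison was of the number of regions and the length of genome they covered. The lists held 20458 regions in WT 2, 22237 in WT 3, 11313 in WT 1 and 27903 in WT 4. Both MnaseB and MnaseC thus lay between the other 2 libraries, and the sets overlapped. The regions covered 13.5 Mb in WT 2, 14.5 Mb in WT 3, 5.76 Mb in WT 1 and 13.8 Mb in WT 4. In number the sets differed by 0.26 on the log2 scale, less than the spread within sets (SD 0.65), and without WT 1 the difference was -0.39 and without WT 4 0.91. In covered length the difference was 0.65 with a spread of 0.63, and without WT 1 it was 0.02 and without WT 4 1.28. WT 1 stood apart with the shortest list. The read depth of the libraries is unknown, but a background pileup derived from the fold and p of each region gave 4.26 in WT 1, 4.94 in WT 2, 5.00 in WT 3 and 5.58 in WT 4. The number of regions followed the order of this measure, and its part in the differences was not tested.

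Region width separated the sets. The median width was 557 bp in WT 2 and 542 bp in WT 3, against 404 bp in WT 1 and 366 bp in WT 4. The means were 550 ± 10.6 bp (SD, n = 2) and 385 ± 26.9 bp (SD, n = 2), a ratio of 1.43, and the difference of 0.51 on the log2 scale compared with a spread within sets of 0.07. Regions of 1000 bp or more made up 19.3% of the list in WT 2 (3946 regions) and 18.5% in WT 3 (4106). They made up 7.62% in WT 1 (862) and 8.84% in WT 4 (2466). At the short end, regions of at most 300 bp made up 22.2% and 22.0% in WT 2 and WT 3, against 29.4% in WT 1 and 36.7% in WT 4. Of regions of 2000 bp or more there were 195 in WT 2 and 210 in WT 3, against 18 in WT 1 and 59 in WT 4. WT 4 had both the longest list and the narrowest regions. The medians rose where weak regions were left out and a list shortened: with only the 11313 strongest regions of each list, the medians were 639 and 665 bp in WT 2 and WT 3 and 404 and 531 bp in WT 1 and WT 4, and the sets still did not overlap.

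**Figure D1:**
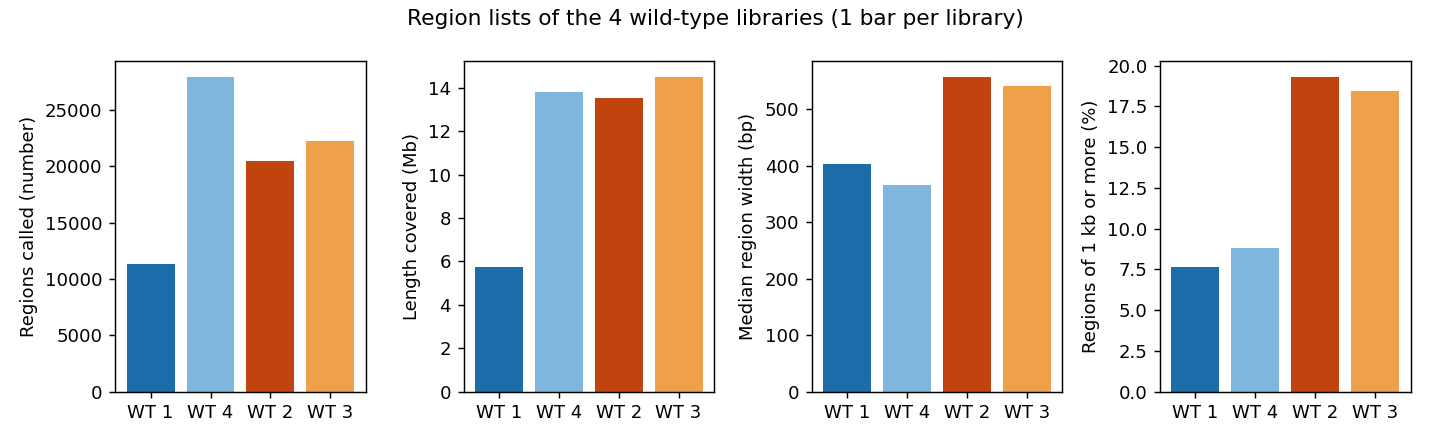
Number of regions, length covered (Mb), median region width (bp) and share of regions of 1 kb or more (%) in the 4 wild-type libraries, 1 bar per library. WT 2 and WT 3 lie between WT 1 and WT 4 in number, and above both in median width and in the share of wide regions (19.3% and 18.5% against 7.62% and 8.84%).

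**Figure D2:**
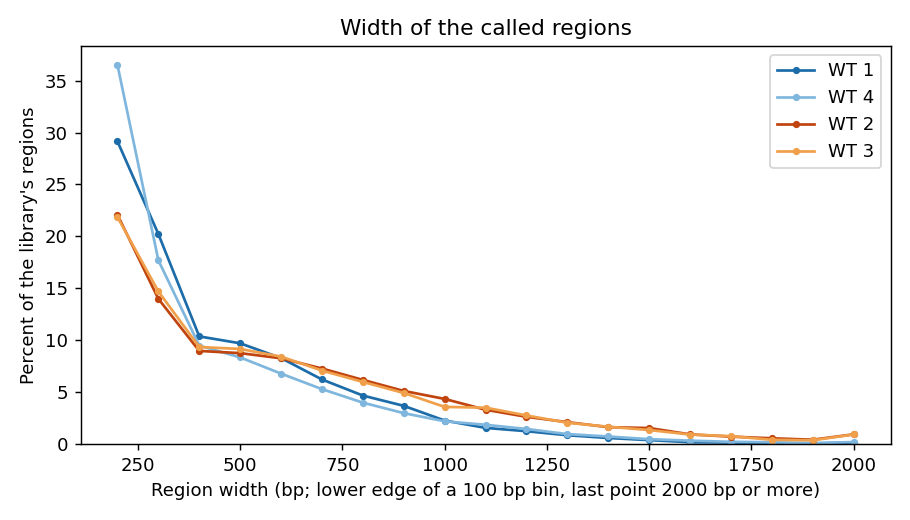
Share of the regions of each library (%) by width (bp, in bins of 100 bp, with the last point for 2000 bp or more). The lines of WT 2 and WT 3 lie almost on each other, below WT 1 and WT 4 for the shortest regions and above them from 1000 bp upwards.

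The same difference was present at places that all 4 libraries shared. The 4 lists merged into 44280 regions, of which 6591 (14.9%) held a call from every library. Within these the median length called was 863 bp in WT 2 and 903 bp in WT 3, against 537 bp in WT 1 and 766 bp in WT 4. WT 2 and WT 3 were both wider than both others in 2443 of them (37.1%) and both narrower in 478 (7.25%). For the fold enrichment over background, which is the authors' value for each region, the order went the other way. WT 2 and WT 3 were both above both others in 682 of the shared regions (10.3%) and both below in 2056 (31.2%). Shared regions were thus more often wider and lower in WT 2 and WT 3. Width and fold came from the same calls and are not separate traits. Whether a lower fold followed from a wider call was not tested. The median fold in shared regions was 3.01 in WT 2 and 3.07 in WT 3, and 3.24 in WT 1 and 3.08 in WT 4, so that the gap from WT 3 to WT 4 was small.

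Some regions of one list spanned several of another. In WT 2, 193 regions spanned at least 2 regions of WT 4, and in WT 3 202 did, while 56 and 111 regions of WT 4 spanned at least 2 of WT 2 and of WT 3. Between WT 2 and WT 3 themselves, 227 regions of WT 2 spanned at least 2 of WT 3, and 145 the reverse, so that such splits were not particular to WT 4. With WT 1 the counts were 39 to 77 in either direction.

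Around the annotated starts of genes, the regions of WT 2 and WT 3 reached further out. At the start itself a region was present at 25.9% of the 17491 genes with a known start in WT 2 and 29.3% in WT 3, between 14.8% in WT 1 and 33.7% in WT 4. The order of WT 4 and the MnaseB and MnaseC libraries turned over with distance. At 1000 bp upstream, 2.33% of genes had a region in WT 2 and 2.40% in WT 3, above 1.49% in WT 4 and 0.760% in WT 1. At 1000 bp downstream the shares were 7.11% and 7.34%, above 5.10% in WT 4 and 2.72% in WT 1. At the 1398 starts covered in all 4 libraries, the median region reached 324 bp upstream in WT 2 and 323.5 bp in WT 3, against 215 bp in WT 1 and 286 bp in WT 4. Downstream it reached 550.5 and 592 bp in WT 2 and WT 3, against 380 and 521.5 bp in WT 1 and WT 4. The added width therefore lay on both sides of the start. The finish of genes was low in every library, with a region at 0.492% and 0.612% of genes in WT 2 and WT 3 and at 0.194% and 0.389% in WT 1 and WT 4.

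**Figure D3:**
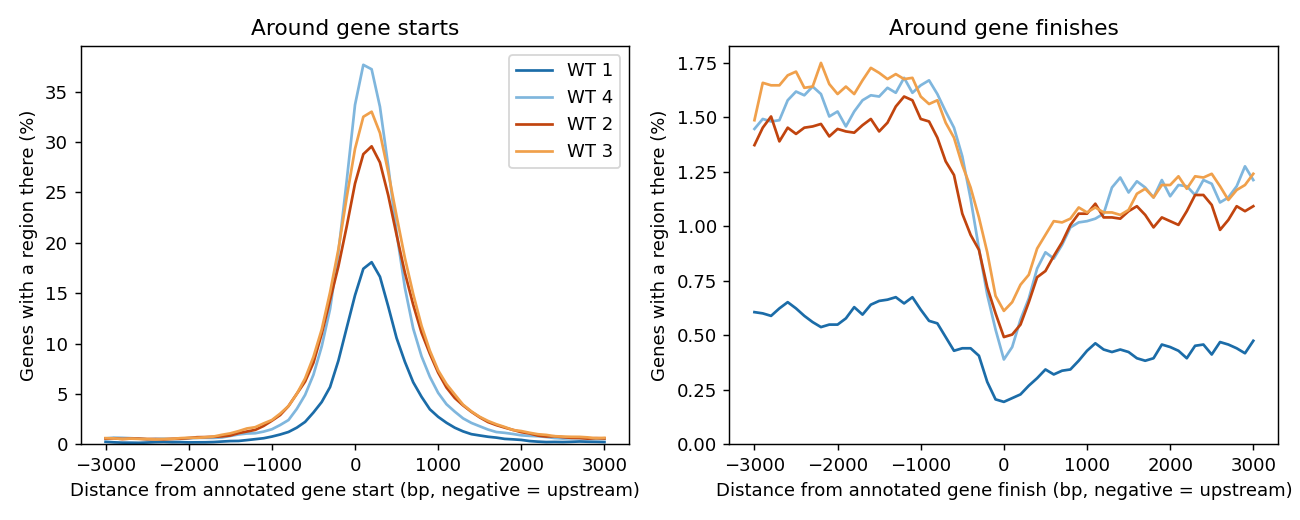
Share of genes (%) with a region at each distance (bp) from the annotated start (left) and finish (right), in steps of 100 bp, 1 line per library; the vertical axes differ. At the start the peak of WT 4 (37.7%) is above those of WT 3 (33.0%), WT 2 (29.6%) and WT 1 (18.1%), while at 1000 bp on either side WT 2 and WT 3 are the highest.

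The place of the regions along genes differed less clearly. Regions within 1 kb of either end of a protein-coding gene made up 42.7% in WT 2 and 42.8% in WT 3, between 51.0% in WT 1 and 36.7% in WT 4. These shares have exact (Clopper-Pearson) 95% intervals of 42.0 to 43.4%, 42.2 to 43.5%, 50.1 to 51.9% and 36.2 to 37.3%, which cover counting error only. WT 2 and WT 3 agreed within counting error, and in the deposited lists both lay between the others. The set means differed by -1.13 percentage points, by 6.02 without WT 1 and by -8.27 without WT 4. At a −log10 p of 5 or more the shares were 51.5% and 52.4% in WT 2 and WT 3, below 62.1% in WT 1 and 53.7% in WT 4. The difference there was -5.97 points. At a −log10 q of 2 or more it was -5.76, but the sets overlapped. WT 2 and WT 3 (49.9% and 50.0%) again lay between WT 1 (63.1%) and WT 4 (48.4%). In lists of equal length the sets also overlapped, with 48.9% and 51.3% in WT 2 and WT 3 and 51.0% and 54.4% in WT 1 and WT 4. Regions centred in gene bodies made up 61.8% in WT 2 and 62.4% in WT 3, just under 63.0% in WT 4 and under 68.4% in WT 1. The values of the sets did not overlap in this measure, and their means differed by -3.58 points with a spread within sets of 2.73. The exact 95% intervals of WT 2 (61.1 to 62.5%) and WT 3 (61.8 to 63.1%) nevertheless overlapped that of WT 4 (62.4 to 63.6%). That of WT 1 (67.5 to 69.3%) lay apart. Without WT 1 the difference was -0.88 points, without WT 4 -6.29, and at a −log10 p of 5 or more -6.74.

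The clearest difference in place was on chromosome X. Sperm carry either an X or a Y, so in a mixed sample each sex chromosome is present at a lower dose than an autosome. Chromosome X held 1.17% of the regions of WT 2 (239, exact 95% interval 1.03 to 1.33%) and 1.36% of those of WT 3 (302, 1.21 to 1.52%). It held 0.513% of the regions of WT 1 (58, 0.390 to 0.662%) and 0.624% of those of WT 4 (174, 0.535 to 0.723%). The set means of 1.26 ± 0.134% and 0.568 ± 0.0784% (SD, n = 2 each) stood in a ratio of 2.22, and all 4 shares were below the 6.34% of the genome that X spans. No autosome had a ratio between the sets above 1.07 or below 0.935, and chromosome Y, with 0.200% and 0.198% in WT 2 and WT 3 and 0.230% and 0.136% in WT 1 and WT 4, overlapped between sets. The X share was chosen for description after it had been seen. With lists cut to equal length it was 1.17% and 1.33% in WT 2 and WT 3, against 0.513% and 0.654% in WT 1 and WT 4.

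Of the X regions, 57.7% in WT 2, 54.0% in WT 3, 34.5% in WT 1 and 45.4% in WT 4 were within 1 kb of a gene end. Of the 966 protein-coding genes of X, 147 had a region at an end in WT 2 (15.2%) and 162 in WT 3 (16.8%), against 21 in WT 1 (2.17%) and 84 in WT 4 (8.70%). On the autosomes WT 4 was the highest, with 52.4% of genes against 44.8% in WT 2, 48.3% in WT 3 and 30.4% in WT 1. Among the 322 X promoters with 10 to 29 CG, the start was covered at 33 in WT 2, 41 in WT 3, 15 in WT 4 and 0 in WT 1. The count of 0 allows a share of up to about 0.932%, taken as 3 counts over the 322 promoters and not as an exact interval. At autosomal promoters of the same CG range the shares were 36.7%, 42.0%, 47.8% and 16.4% in that order, so that WT 4 was above WT 2 and WT 3 on the autosomes and below them on X.

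Taken over both lists of a pair, overlap was highest for MnaseB and MnaseC. In WT 2, 65.9% of regions overlapped WT 3 by at least 1 bp, and 60.9% of the regions of WT 3 overlapped WT 2. The length shared by both, over the length in either, was 36.2%. For WT 1 and WT 4 that share was 22.8%, and for the 4 pairs drawn across sets it ran from 22.8% to 28.1%. The short length covered by WT 1 (5.76 Mb) limits this share in its pairs. Of the length of WT 1, 63.2% lay in WT 4, while 26.3% of that of WT 4 lay in WT 1. Between WT 2 and WT 3 the same shares were 55.1% of WT 2 and 51.4% of WT 3. Averaged over both directions, pairs within sets overlapped 4.83 percentage points more than pairs across sets. This average rested on the WT 2 and WT 3 pair, since without WT 2 or without WT 3 it was -2.95 and -1.47 points, while without WT 1 or without WT 4 it was 14.8 and 8.90. In lists of equal length the MnaseB and MnaseC pair overlapped in 54.3% of regions, WT 1 and WT 4 in 51.0%, and the pairs across sets in 44.3% to 52.8%, so the separation was smaller there. At equal length WT 4 overlapped WT 1 in 50.9% of regions, more than WT 3 (47.3%) and WT 2 (44.3%), while WT 1 overlapped WT 3 in 53.0%, WT 2 in 51.2% and WT 4 in 51.1%. Regions with identical borders numbered 54 between WT 2 and WT 3 and 39 to 56 in the other pairs.

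Regions called in both libraries of one set and neither of the other were then counted. Of the 44280 merged regions, 2629 (5.94%) were called in WT 2 and WT 3 only and 473 (1.07%) in WT 1 and WT 4 only. Among the other combinations of 2 libraries, 1562 regions were called in WT 3 and WT 4 only, 1009 in WT 2 and WT 4 only, 330 in WT 1 and WT 3 only and 238 in WT 1 and WT 2 only. The MnaseB and MnaseC combination was the most frequent of these 6. The count depended on the length of the lists. With lists of equal length, 1152 regions were in WT 2 and WT 3 only and 898 in WT 1 and WT 4 only, and at a stricter limit, a −log10 p of 5 or more, the counts were 1178 and 777. Without WT 4 the first count rose to 5991, and without WT 1 the second was 13978, being then the regions of WT 4 that neither WT 2 nor WT 3 held. Without WT 2 or WT 3 the first count was 8868 and 8110 and the second 879 and 1181, and without WT 4 the second was 2189, since fewer lists then had to meet the condition.

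**Figure D4:**
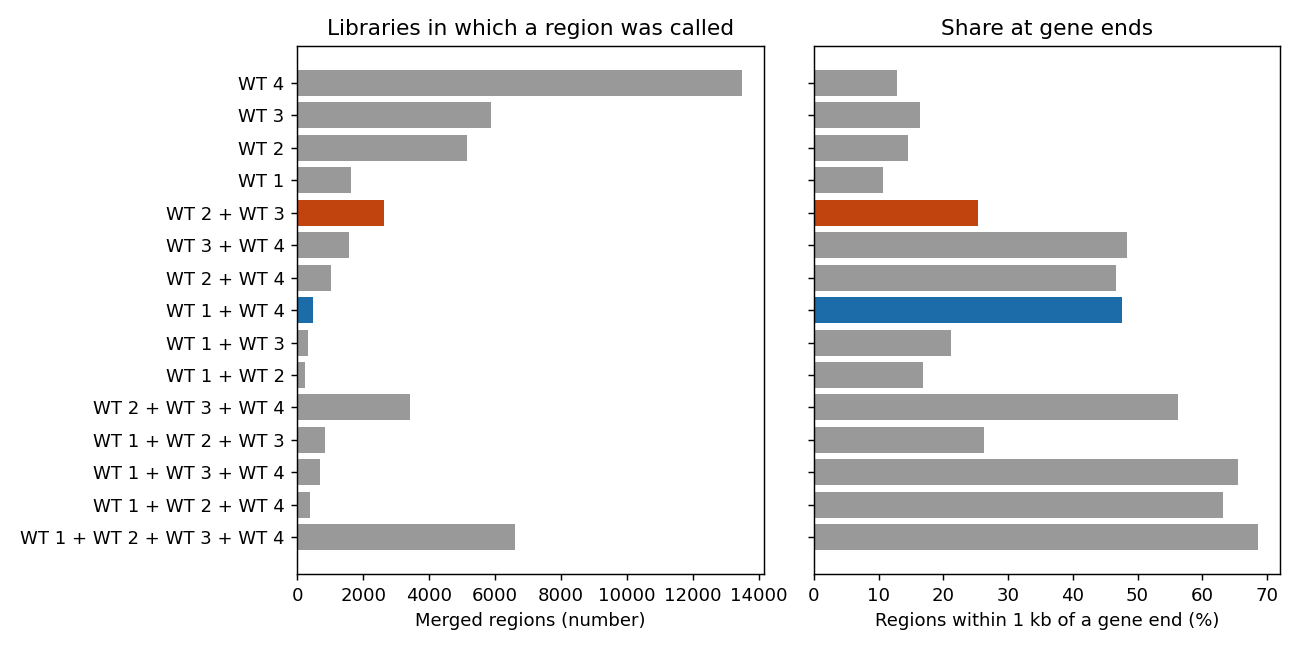
Number of merged regions (left) and share of them within 1 kb of a gene end (right, %) for each combination of libraries that called them. Regions of WT 2 and WT 3 only number 2629, of which 25.3% lie at gene ends, and regions of WT 1 and WT 4 only number 473, of which 47.6% do.

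The 2 classes lay in different places. Of the regions in WT 2 and WT 3 only, 25.3% were at a gene end, 30.4% inside genes away from the ends and 44.3% between genes. Of those in WT 1 and WT 4 only, 47.6% were at a gene end, 26.4% inside genes and 26.0% between genes. For regions shared by all 4 libraries the share at gene ends was 68.7%, and for all merged regions 29.8%. The median distance to a gene start was 27.7 kb in the first class, 6.50 kb in the second and 0.511 kb in regions of all 4. The difference kept its direction in lists of equal length, at 38.8% against 65.4% at gene ends, and at a −log10 p of 5 or more, at 42.1% against 70.9%. Without WT 1 the shares were 25.2% and 14.0%, and without WT 4 they were 42.6% and 19.7%, so the order turned over. Without WT 2 they were 19.6% and 54.6%, and without WT 3 18.7% and 58.3%. Each time a library was left out, 1 of the classes rested on a single library. Of the regions called in 1 library only, 13.8% lay at gene ends. These settings therefore cannot show whether the difference needed a particular library. The combinations that include WT 4 also had the higher shares, with 48.4% for WT 3 and WT 4 and 46.7% for WT 2 and WT 4.

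Regions of WT 2 and WT 3 only were wider and weaker than those of WT 1 and WT 4 only. Here too, the part of width in the fold and q of a region was not tested. Their merged median width was 765 bp, against 559 bp in WT 1 and WT 4 only. The median fold in the first class was 2.88 in WT 2 and 2.90 in WT 3, and in the second it was 3.21 in WT 1 and 2.96 in WT 4. Over all merged regions that each library called, it was 2.93, 2.95, 3.16 and 2.85 in that order. The median length called was 519 bp in WT 2 and 512 bp in WT 3 in the first class, against 563 and 555 bp over all merged regions. In the second class it was 316 bp in WT 1 and 461 bp in WT 4, against 412 and 369 bp. The first class was thus not wider than the lists of WT 2 and WT 3 at large. In 549 regions of the first class (20.9%) and 187 of the second (39.5%), both libraries gave a −log10 q of at least 2. A −log10 q of at least 5 in both was reached by 2 and 17 regions.

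By the rank of their −log10 q, the leading regions of WT 2 and WT 3 only were mostly outside genes. The first, at chr17:3035028-3035227, had the same borders in both libraries, lay 79745 bp from Scaf8 and had folds of 3.01 and 2.81. The next, at chr7:26779834-26780120, lay 7204 bp from Cyp2b19, a cytochrome P450 gene, with folds of 4.65 and 4.30. Others lay at chr5:36630486-36630789, in D5Ertd579e, and at chr6:20969152-20969567, 245779 bp from the potassium channel gene Kcnd2. The widest merged regions of the class were 2413 bp in Clasp1, which encodes a microtubule-binding protein, and 2373 bp in Gmpr2, an enzyme of purine metabolism.

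The leading regions of WT 1 and WT 4 only were stronger, and those given here lay in or near genes. One at chr13:98838332-98838550, 469 bp from the nuclear import gene Tnpo1, had folds of 7.40 and 5.44, and its borders were the same in both libraries. Another at chr11:84333557-84333776, in Acaca, the acetyl-CoA carboxylase of fatty acid synthesis, had folds of 6.63 and 5.93, again with the same borders. At chr1:63309226-63309747, in the imprinted gene Zdbf2, the folds were 6.29 and 5.39. Each of these 3 exceeded the fold of every leading region of the MnaseB and MnaseC class.

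Gene starts were then grouped by the number of CG in their 300-base promoter. In each library the share of covered starts rose with CG, but it rose most steeply in WT 1 and WT 4. Of the 2605 starts with at least 30 CG, 59.6% were covered in WT 2 and 66.9% in WT 3, against 51.0% in WT 1 and 85.4% in WT 4. Of the 3685 with 10 to 19 CG, 27.8% and 32.2% were covered in WT 2 and WT 3, against 9.96% in WT 1 and 32.8% in WT 4. The ratio of these shares was 2.15 in WT 2 and 2.08 in WT 3, and 5.12 in WT 1 and 2.61 in WT 4. In lists of equal length it was 2.37 and 2.40 against 5.12 and 3.93. The mean difference of the log2 ratio was -0.79, and -0.30 without WT 1 and -1.28 without WT 4. At the 5101 starts with at most 4 CG, WT 2 and WT 3 covered 2.27% and 2.18%, more than WT 1 with 0.647% and WT 4 with 1.47%. The mean number of CG over all covered starts was 25.5 in WT 2 and 25.6 in WT 3, 30.2 in WT 1 and 26.9 in WT 4. The gap between WT 4 and the MnaseB and MnaseC libraries was smaller than that between WT 4 and WT 1.

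The starts covered in one set only come from the same calls, so their CG counts restate this order and are not a second sign of it. There were 534 starts (3.05% of 17491) covered in WT 2 and WT 3 only, with a median of 19 CG and an interquartile range of 13 to 25. There were 243 (1.39%) covered in WT 1 and WT 4 only, with a median of 32 CG and a range of 24 to 38. The 1398 starts covered in all 4 libraries (7.99%) also had a median of 32, and all starts had 13. At least 30 CG were present in 11.2% of the first group and 59.7% of the second, beside 14.9% of all starts. Of the printed promoters, Tekt1 with 20 CG was near the middle of the first group. Zpbp2 with 26 and Gata2 with 32 lay above its interquartile range, Gata2 at the median of the second group. Clock with 42 lay in the upper part of the second.

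**Figure D5:**
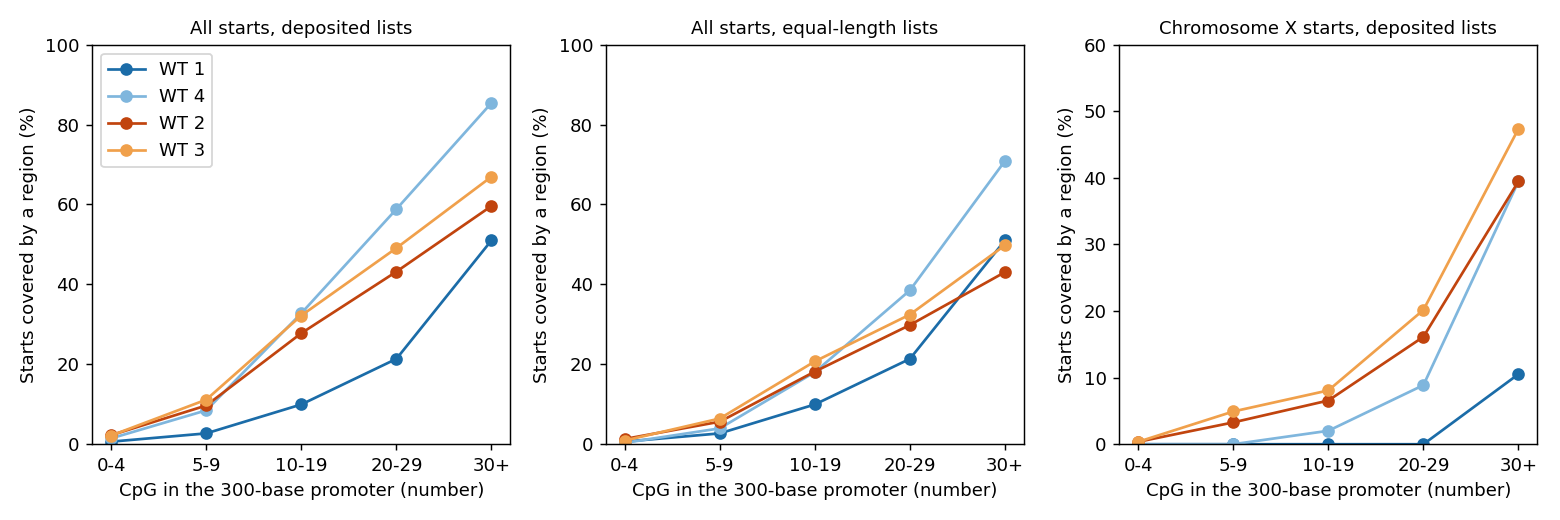
Share of gene starts covered by a region (%) by the number of CG in the 300-base promoter, for the deposited lists (left), lists cut to the length of the shortest (middle) and chromosome X (right, with its own vertical axis), 1 line per library. WT 1 and WT 4 rise more steeply at 30 CG or more (51.0% and 85.4% in the deposited lists), and on X the lines of WT 2 and WT 3 lie above both others except at 30 or more, where WT 2 and WT 4 meet at 39.5%.

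Protein-coding genes were compared by whether a region lay within 1 kb of either end. Of 21883 genes, 9406 had one in WT 2, 10132 in WT 3, 6301 in WT 1 and 10907 in WT 4. A region in WT 2 and WT 3 only was found at 666 genes (3.04%), in WT 1 and WT 4 only at 235 (1.07%), and in all 4 libraries at 4849 (22.2%). In lists of equal length the counts were 500 and 667, and at a −log10 p of 5 or more 569 and 618, so the order of the 2 classes turned over. At a −log10 q of 2 or more they were 650 and 442, in the original order. The regions of the 2 libraries at a gene need not be the same: the strongest ones overlapped at 572 of the 666 genes and 209 of the 235. Without 1 library at a time the first count ran from 904 to 2994 (without WT 4) and the second from 323 to 1541 (without WT 1). The strongest region was at the start, where strand was known, in 90.1% of the first class and 91.9% of the second. Genes of the first class had a median length of 14.1 kb and a median of 15 CG in the promoter, against 25.9 kb and 23 CG in the second and 34.3 kb and 25 CG for genes of all 4 libraries.

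Of the 666 genes of WT 2 and WT 3 only, 42 (6.31%) were on X, and of the 235 of WT 1 and WT 4 only, 0 were. The count of 0 allows a share of up to about 1.28%, taken as 3 counts over the 235 genes. Chromosome X holds 4.41% of all the protein-coding genes. Genes of all 4 libraries were also short of X, with 13 of 4849 (0.268%). Both that group and the 235 genes need a region in WT 1, where only 21 X genes had one. The X genes of WT 2 and WT 3 only included Slitrk4, which encodes a synaptic membrane protein. Its folds were 3.98 in WT 2 and 3.68 in WT 3. At Fmr1, which encodes the RNA-binding protein lost in fragile X syndrome, the folds were 3.56 and 3.31. Others were Ddx3x, an RNA helicase, Pola1, the catalytic subunit of DNA polymerase alpha, and the nucleosome-binding gene Hmgn5. Of these X genes, only Slitrk4 came from the naming rule, and the others were chosen after their values had been seen.

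The leading genes of WT 2 and WT 3 only had modest folds. Hnrnpm, a splicing regulator, led with a region over its start of 591 bp and a fold of 4.10 in WT 2, and of 472 bp and 3.52 in WT 3. Cxxc4, which encodes a CXXC-domain protein that binds unmethylated CpG, had folds of 2.80 and 3.10. At Wscd1 the regions were wide, 1078 and 1170 bp, with folds of 3.38 and 3.23. Mtx1, a mitochondrial import protein, and Thbs3, a thrombospondin, lie next to each other and shared 1 region with folds of 3.48 and 3.42. Dhx38, an RNA helicase of splicing, and Txnl4b likewise shared 1 region, with folds of 3.81 and 3.49. Insrr, an insulin receptor related kinase, had regions of 1280 and 1270 bp with folds of 3.01 and 3.12. The remaining leading genes were Slitrk4, Prkrip1, Spata31d1b and Rhov, and over all 12 the folds lay between those of Cxxc4 in WT 2 and Hnrnpm in WT 2.

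The leading genes of WT 1 and WT 4 only were called more strongly. At Pwwp2a, which encodes a chromatin protein that binds the histone variant H2A.Z, the fold was 5.75 in WT 1 and 4.13 in WT 4, over 549 and 892 bp. Kbtbd8, an adaptor of a ubiquitin ligase, had folds of 6.005 and 4.58, and Siah2, a ubiquitin ligase, of 5.37 and 3.77. Dip2a, whose promoter is printed above with 47 CG, had folds of 5.71 and 4.12 over 360 and 545 bp. Gtdc1 had folds of 5.38 and 4.45, and Clock of 4.49 and 3.71. Spry1, an inhibitor of growth factor signalling, had 5.04 and 3.69, and its region was 418 bp in WT 1 and 1252 bp in WT 4. The remaining leading genes were Rnf169, Ikzf2, Zfp516, Snx16 and Tusc1. In WT 1 the −log10 q within the class reached 11.1 and in WT 4 8.82, against at most 5.55 in WT 2 and 5.82 in WT 3 in the class of 666 genes. For contrast, Slc22a29, an organic anion transporter gene and the leading gene of all 4 libraries, had folds of 33.3, 27.4, 29.4 and 32.5 in WT 1 to WT 4 over the same 251 bp.

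Gene groups fixed as lists were then read against these shares of 3.04% and 1.07%. The shares of all protein-coding genes called were 43.0% in WT 2, 46.3% in WT 3, 28.8% in WT 1 and 49.8% in WT 4. The groups are small, and WT 1 was the lowest or among the lowest library in most. Genes of spermatids and sperm had 34 of 73 members (46.6%) called in each of WT 2, WT 3 and WT 4. In WT 1 there were 12 (16.4%). Of these 73, 5 (6.85%) were in WT 2 and WT 3 only and 0 in WT 1 and WT 4 only. They included Zpbp2, whose promoter is printed above, with folds of 3.84 and 3.25. At Sun5, which encodes a protein of the sperm head-to-tail junction, the folds were 4.25 and 2.79, and at Tekt1 2.86 and 2.80. Meiotic and early germ cell genes had 26 and 33 of 56 members called in WT 2 and WT 3, and 16 and 34 in WT 1 and WT 4. The 2 in WT 2 and WT 3 only (3.57%) were Tex12 and Sohlh1. Tex12, of the synaptonemal complex, had folds of 3.45 and 3.14, and Sohlh1, a germ cell transcription factor, of 3.51 and 2.72.

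Cytosolic ribosomal protein genes had 48 and 50 of 81 members called in WT 2 and WT 3 (59.3% and 61.7%). In WT 1 there were 25 (30.9%) and in WT 4 48 (59.3%). Of the 81, 7 (8.64%) were in WT 2 and WT 3 only, Rplp2, Rps9 and Rps6 among them. Rpl27 (1.23%) was the only member in WT 1 and WT 4 only. At Rps9 the regions of WT 2 and WT 3 did not overlap. Canonical histone genes had 24 and 23 of 63 called in WT 2 and WT 3, just above 22 in WT 4 and above 9 in WT 1. The linker histone genes H1f2 and H1f1 were in WT 2 and WT 3 only (3.17%). At H1f1 the regions of WT 2 and WT 3 did not overlap, and that of WT 2 had a −log10 q of 1.12, near the limit of the list. The sets did not overlap for these histone genes, but WT 4 was 1 gene away. Housekeeping genes had 24 and 26 of 40 called in WT 2 and WT 3, between 15 in WT 1 and 28 in WT 4. Ndufa1 and Gpi1 were in one class and Tfrc and Cfl1 in the other, each pair being 5.00% of the list.

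Developmental regulators, known for nucleosome retention and Polycomb marks in sperm, gave 0 to 3 genes per list in either class. Hox genes had 21 and 22 of 39 members called in WT 2 and WT 3, against 14 in WT 1 and 21 in WT 4. Of these, Hoxc6 and Hoxc12 were in WT 2 and WT 3 only, and Hoxa5, Hoxa6 and Hoxa2 in WT 1 and WT 4 only, shares of 5.13% and 7.69% beside 3.04% and 1.07% of all genes. At Hoxc6, and at the neighbours Hoxa5 and Hoxa6, which shared their calls, the region of one library did not overlap that of the other. Other homeobox factors had 45 and 43 of 63 called in WT 2 and WT 3, against 35 and 46 in WT 1 and WT 4, with Lhx9 in one class (1.59%) and Nkx6-2 and Nkx2-1 in the other (3.17%). In Sox, T-box, Pax and Gata factors the only gene of a class was Gata2 (2.04%), with folds of 2.48 and 2.28 in WT 2 and WT 3. Ligands of the Wnt, BMP, FGF, Hedgehog and Notch pathways had 52 and 48 of 79 called in WT 2 and WT 3 and 41 and 53 in WT 1 and WT 4, and 0 were in either class. Polycomb, trithorax and DNA methylation genes had 42 and 44 of 60 called in WT 2 and WT 3 and 31 and 46 in WT 1 and WT 4. Mtf2, a Polycomb accessory factor, Rbbp5 and Ash2l, both subunits of histone methyltransferase complexes, were in WT 2 and WT 3 only, or 5.00% of the list. Imprinted genes had 34 and 32 of 58 called in WT 2 and WT 3 and 27 and 37 in WT 1 and WT 4. Mkrn3, an imprinted gene expressed from the paternal allele, was the only one in a class (1.72%). Its folds were 4.20 in WT 1 and 3.11 in WT 4.

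Large gene families differed among themselves. Clustered protocadherins, cell adhesion genes of neurons, had 16 and 24 of 57 called in WT 2 and WT 3 (28.1% and 42.1%). They had 4 in WT 1 (7.02%) and 20 in WT 4 (35.1%), with 4 in WT 2 and WT 3 only (7.02%). Because their genes overlap, 1 region can serve several of them. Zinc finger genes had 159 and 186 of 367 called in WT 2 and WT 3 and 102 and 199 in WT 1 and WT 4, with 11 and 3 in the 2 classes (3.00% and 0.817%), near the shares of all genes. Olfactory receptors were nearly without regions, with 18 and 16 of 1110 in WT 2 and WT 3 and 9 and 14 in WT 1 and WT 4, as were vomeronasal receptors with 3, 4, 2 and 8 of 355 in WT 2, WT 3, WT 1 and WT 4.

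Sperm from the epididymis can carry epithelial cells and leukocytes, and the assay reads DNA, so that expression of their markers cannot be checked. Genes of the epididymal epithelium had 4 and 5 of 65 called in WT 2 and WT 3 and 2 and 3 in WT 1 and WT 4. Genes of leukocytes had 8 and 8 of 37 called in WT 2 and WT 3 and 8 and 6 in WT 1 and WT 4. In WT 2 and WT 3 only were Cst8, an epididymal cystatin (1.54% of its list), and S100a9, a neutrophil calcium-binding protein (2.70%). At S100a9 the regions of WT 2 and WT 3 did not overlap. Both groups were called less often than protein-coding genes at large in each of the 4 libraries, where the shares ran from 28.8% in WT 1 to 49.8% in WT 4. Their promoters held a median of 2 CG for the epithelium list and 4 CG for the leukocyte list, against 13 over all protein-coding genes. Because coverage of starts rose with CG in each library, the low counts alone do not measure somatic DNA. The parts of CG and of somatic DNA in these counts were not tested.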

How the data were processed

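MNase-seq of sperm was analysed in 4 wild-type libraries. The submitters' processing notes name FastQC, BWA, Picard, SAMtools, MACS2 and the build mm10. Tool versions, settings and read depth are not stated there, nor is whether an input control or the molecular identifiers were used. For each region the deposited lists give a fold enrichment (a ratio), a −log10 p, a −log10 q and a score, which was not used. The lists have no header and ended at a q of 0.1. Fold, p and q are the authors' values, and intervals cover counting error only.

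The lists were merged into 44280 regions, joined by an overlap of at least 1 bp, and placed against 21883 protein-coding genes of RefSeq GRCm38.p6. A region was at a gene end if it overlapped a window of 1 kb either side of an end. Strand, start and promoter sequence were matched for 17491 genes, none on chromosome 18. The background pileup was solved from fold and p for regions up to 400 bp whose −log10 p was below 100, taking p as a Poisson tail, and is approximate. Python 3.11.15, pandas 2.3.3, numpy 2.4.6 and scipy 1.17.1 were used, and the interval functions were tested on simulated data. Alternatives were a −log10 p of at least 5, a −log10 q of at least 2, lists cut to the 11313 strongest regions, an overlap of 0.5 of a region, merging over 500 bp, a window of 5 kb, and leaving out each library.

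Named genes were the 12 of each class (6 for all 4 libraries) ranked highest by the mean percentile, by −log10 q, of the best region, without predicted genes, and up to 3 members of each of 17 lists per class. Named regions were the 4 strongest and the 4 widest per class, of which the text gives the leading ones; 1 of them is not reported here. The libraries compared, the gene lists and the measures were chosen with earlier results of these data known.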

Additional observations from a re-analysis of the deposited data

Results flagged for a closer look

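The length covered by regions in WT 1, 5.76 Mb, stood apart from the other wild-type libraries, which covered 13.5 to 14.5 Mb. Its gap to the nearest library was 0.890 of the whole range, above the 95% critical value of Dixon's test for 4 libraries. The 4 libraries were read as 1 group in 12 measures, and chance alone puts about 1 in 20 groups past this limit in each measure, so that a single flag among 12 is not rare. WT 1 belongs to the set that is set against MnaseB and MnaseC, so the values without it are given beside the results that moved.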

How the results depend on the processing

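The difference in median width ran from 0.44 to 0.59 on the log2 scale over all alternatives run, and MnaseB and MnaseC stayed above the others. The share of regions of 1 kb or more (up to 13.5 points), the X share (0.52 to 0.79 points) and the CG contrast kept their direction; these measures and the gene-end share of regions of 1 set were added after seeing the data. Regions in WT 2 and WT 3 only numbered 1178 at a −log10 p of at least 5, 1516 at a −log10 q of at least 2 and 1152 in lists of equal length, and those in WT 1 and WT 4 only 777 at that p and 898 at equal length. Genes in WT 1 and WT 4 only numbered 618, 442 and 667 under these settings. The difference in gene bodies was -6.74 points at that p and -6.68 at that q. Leaving out 1 library at a time, regions of WT 2 and WT 3 only ran from 3465 to 8868 and those of WT 1 and WT 4 only from 879 to 13978, and genes from 904 to 2994 and from 323 to 1541. The difference in number ran from -0.39 (without WT 1) to 0.91, that in gene ends from -8.27 to 6.02 points (without WT 1), and that in overlap ran from -2.95 (without WT 2; -1.47 without WT 3) to 14.8. The gene-end share of regions of 1 set differed by 11.2 points without WT 1 and by 23.0 without WT 4, against -22.3 with all libraries and -39.6 without WT 3. With a library left out, 1 of the classes rested on a single library, so these values do not show which library the difference needed. Lists of equal length can give no value for the number of regions. No paired analysis was possible because the sets share no replicate number and no test was made.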
